A study of Mus musculus with 4 samples.

Results

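The NR4A nuclear receptors NR4A1, NR4A2 and NR4A3 were followed across 4 libraries of blood CD8+ T cells from a PD-1 antibody therapy study. The members were chosen by name, as every entry whose gene name was one of the 3 symbols, and they are 3 of the 64253 genes in the files. The cells had been sorted for CD8 and for high CD11a, an integrin chain that marks antigen-experienced T cells. Each of the 4 groups held 1 library: responder after therapy, non-responder after therapy, responder before therapy, and non-responder before therapy. A cycle of the antibody was 4 doses at intervals of 3 weeks, and the labels name neither the antibody nor the disease. All 4 libraries were made from total RNA of human blood cells, although the labels' organism entry is mouse. One treatment label places every sample after a cycle of therapy, whereas the group label places a pair of libraries before it, and the group label was followed. A PD-1-positive tag stands in the names of the before-therapy pair, so a further gate on PD-1 before therapy cannot be told apart from time. The labels do not say that libraries from before and after therapy came from the same patients, so time and patient cannot be told apart either.

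NR4A proteins are orphan nuclear receptors, transcription factors of the hormone receptor superfamily that act without a bound hormone. Their genes are immediate early genes: in T cells they are transcribed within minutes to hours of antigen receptor signalling, through calcium and calcineurin with MEF2 and NFAT factors, through cAMP with CREB, and through MAP kinases. NR4A1 and NR4A2 can pair with the retinoid X receptors, while NR4A3 does not. In mouse T cells the family is known for restraining activation and for its part in tolerance, regulatory T cell identity and the exhausted state, and Nr4a1 reporters are used to read recent antigen receptor signalling.

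The libraries held 129773591 counts for the responder and 115446087 for the non-responder after therapy, and 78912300 for the responder and 65500644 for the non-responder before therapy. The unit of level is CPM, in which each count is divided by a library size that TMM factors have corrected for composition. Intervals are exact 95% intervals for counting error only, since each group held 1 library and the spread between patients was not measured. The sort was visible in the RNA of every library, in the CD3 and CD8 chains, CD2, TRAC and ITGAL, the CD11a gene. These summed to 6248 CPM in the responder and 3993 in the non-responder library after therapy, and to 5966 and 4532 before it. Of these 8 markers, 6 had both responder libraries above both non-responder libraries, where 22.2% of all genes did. Other cells were also visible: 15 monocyte markers summed to 2016 CPM in the responder library and 9662 in the non-responder library after therapy, and to 193 CPM in the responder library and 249 in the non-responder library before therapy. No monocyte marker was at 0 in any library. NK cell markers summed to 537 CPM in the responder and 283 in the non-responder library after therapy, and to 515 and 329 before it. The part of these differences by response in the NR4A ratios was not tested. Summed markers ranged over the 4 libraries from 55.0 to 108 CPM for B cells, from 11.04 to 111 CPM for CD4 T cells and from 2.85 to 22.03 CPM for red cells. The CD4 T cell sum of 111 CPM was that of the non-responder library after therapy, which also had the 9662 CPM of monocyte markers. In it CD4 itself stood at 94.7 CPM, CD40LG at 13.7 and FOXP3 at 2.32, and which cells made the CD4 transcript was not tested. Because blood cells were measured in bulk, fewer cells with a transcript and less transcript per cell cannot be told apart.

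NR4A2 (ENSG00000153234, hg38 chromosome 2, 156324432 to 156342348), the most abundant member, had 7941 counts in the responder and 15522 in the non-responder after therapy, and 2383 in the responder and 22255 in the non-responder before therapy. These are 62.3 CPM in the responder library and 139 in the non-responder library after therapy, and 28.6 CPM in the responder library and 341 in the non-responder library before therapy. Both non-responder libraries lay above both responder libraries, and the highest level was that of the non-responder before therapy, where NR4A2 ranked 382 among all genes used.

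NR4A1 (ENSG00000123358, chromosome 12, 52022832 to 52059507) had 570 counts in the responder and 3626 in the non-responder after therapy, and 297 in the responder and 1009 in the non-responder before therapy. Its levels were 4.47 CPM in the responder library and 32.4 in the non-responder library after therapy, and 3.57 CPM in the responder library and 15.5 in the non-responder library before therapy. Here too the responder libraries lay below the non-responder libraries, but the highest level was that of the non-responder after therapy. NR4A3 (ENSG00000119508, chromosome 9, 99821855 to 99866891), the least abundant member, had 155 counts in the responder and 462 in the non-responder after therapy, and 43 in the responder and 676 in the non-responder before therapy. Its levels were 1.22 CPM in the responder library and 4.13 in the non-responder library after therapy, and 0.516 CPM in the responder library and 10.4 in the non-responder library before therapy. NR4A3 thus took the same order over the libraries as NR4A2, and NR4A1 differed in the order of the non-responder libraries.

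**Figure D1:**
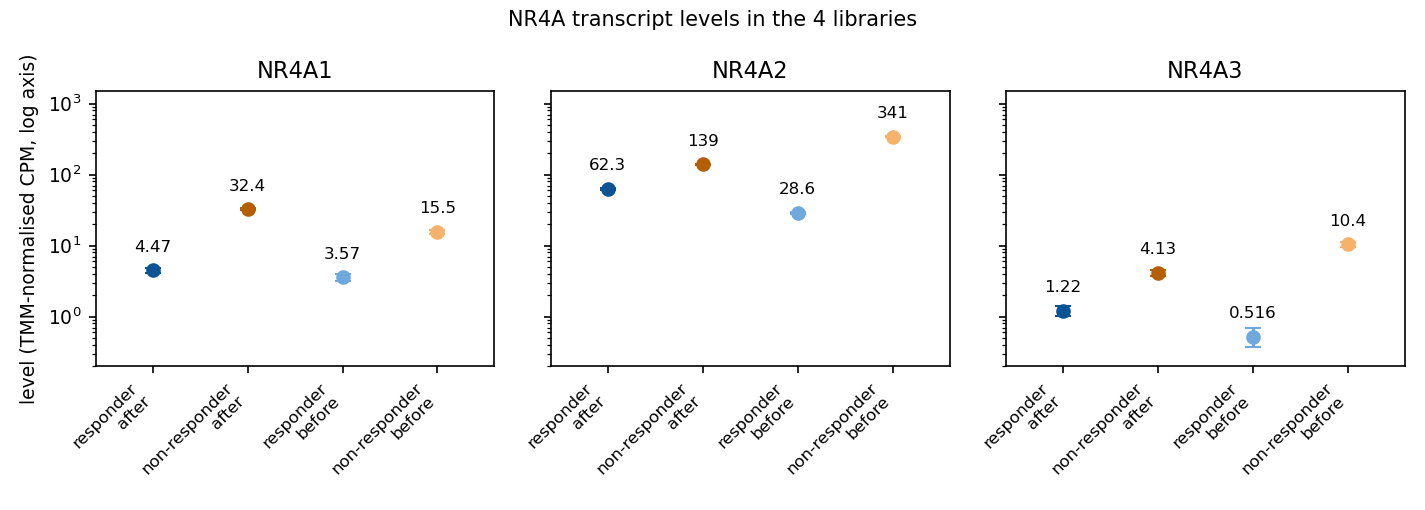
TMM-normalised CPM of NR4A1, NR4A2 and NR4A3 on a log axis in the 4 libraries, with bars for the exact 95% Poisson interval of counting error. In each panel both responder points lie below both non-responder points, and the non-responder libraries change places between NR4A1 (32.4 CPM after, 15.5 CPM before) and NR4A2 (139 CPM after, 341 CPM before).

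All 3 genes therefore had both responder libraries below both non-responder libraries, with no overlap. Among 13233 genes reaching 5 CPM in any library, 16.2% had that order and 22.2% had the reverse one. NR4A1 and NR4A3 reached 5 CPM in non-responder libraries alone.

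Scaled by the length that the files give for each gene, the order within the family was NR4A2, NR4A1, NR4A3 in every library. NR4A2 stood at 15.7 CPM per kb in the responder and 35.0 CPM per kb in the non-responder after therapy, and at 7.21 CPM per kb in the responder and 86.0 CPM per kb in the non-responder before therapy. NR4A1 reached at most 4.44 CPM per kb, in the non-responder after therapy, and NR4A3 at most 1.64 CPM per kb, in the non-responder before therapy. NR4A2 made up 91.6% (95% interval 91.0 to 92.2) of the family's counts in the responder and 79.2% (78.6 to 79.7) in the non-responder after therapy. Before therapy its share was 87.5% (86.2 to 88.7) in the responder and 93% (92.6 to 93.3) in the non-responder. NR4A1 took 6.58% (6.06 to 7.12) in the responder and 18.5% (17.9 to 19.0) in the non-responder after therapy, against 10.9% (9.76 to 12.1) in the responder and 4.21% (3.96 to 4.48) in the non-responder before therapy. NR4A3 stayed between 1.58% and 2.82% of the family in the 4 libraries. The make-up of the family thus differed most between the non-responder libraries, in which the share of NR4A1 was larger after therapy.

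The first comparison set responders against non-responders. After therapy the log2 ratio of responder to non-responder was -2.85 (95% interval -2.99 to -2.73) for NR4A1, a 7.23-fold difference. For NR4A2 it was -1.15 (-1.19 to -1.11), or 2.22-fold, and for NR4A3 -1.76 (-2.03 to -1.50), or 3.38-fold. NR4A1 and NR4A2 reached 5 CPM in either library and both were at least 2-fold lower in the responder, as were 8.85% of the 12434 genes at that level, while 5.79% were at least 2-fold higher. NR4A3, under 5 CPM in both libraries, was not among the genes compared. NR4A1 reached 5 CPM in the non-responder library alone, the high side of its ratio. Among the genes compared, 1.44% had a lower ratio than NR4A1 and 7.48% a lower one than NR4A2. NR4A1 was therefore the member furthest apart after therapy. All 15 monocyte markers were also at least 2-fold lower in the responder after therapy, with sums of 2016 CPM in the responder library and 9662 in the non-responder library. Platelet markers summed to 25.6 CPM in the responder library and 212 in the non-responder library, and dendritic cell markers to 6.70 CPM in the responder library, where 2 of 7 were at 0, and to 65.5 CPM in the non-responder library. The part of these cells' RNA in the NR4A ratios after therapy was not tested.

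Before therapy NR4A1 was the member least far apart. The log2 ratio of responder to non-responder was -4.31 (-4.81 to -3.88) for NR4A3, a 19.9-fold difference resting on 43 counts in the responder. It was -3.58 (-3.64 to -3.51) for NR4A2, or 11.9-fold, and -2.12 (-2.31 to -1.93) for NR4A1, or 4.33-fold. All 3 were at least 2-fold lower in the responder, as were 8.93% of 12361 genes, while 11.5% were at least 2-fold higher. Of those genes, 12 had a lower ratio than NR4A3 and 23 a lower one than NR4A2. NR4A1 and NR4A3 reached 5 CPM in the non-responder library alone, the high side of their ratios. The monocyte markers summed to 193 CPM in the responder library and 249 in the non-responder library at this time, against 32.7 CPM in the responder library and 367 in the non-responder library for the summed NR4A genes. The platelet markers summed to 96.6 CPM in the responder library and 99.99 in the non-responder library. These near-equal sums held genes on both sides. SPARC was higher in the responder (66.0 against 32.0 CPM), whereas PPBP (10.8 against 29.1 CPM), TUBB1 (8.84 against 18.9) and GNG11 (5.24 against 13.7) were lower. Over the 8 platelet markers with a mean of at least 1 CPM the median log2 ratio was -0.72, with 5 lower and 3 higher in the responder. The dendritic cell markers summed to 3.33 CPM in the responder library and 3.86 in the non-responder library. Markers of epithelial cells summed to 158 CPM in the responder library and 8.48 in the non-responder library. The part of monocyte, platelet, dendritic and epithelial cell RNA in the NR4A ratios before therapy was not tested.

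NR4A1 and NR4A2, the members reaching 5 CPM in either library at both times, were at least 2-fold lower in the responder at both, as were 2.01% of 11562 genes. NR4A1 reached 5 CPM in the non-responder libraries alone, the high side of its ratios. The response ratio of NR4A1 was 0.74 log2 units lower after than before therapy, whereas that of NR4A2 was 2.42 units higher and that of NR4A3 2.56 units higher. The gap between responder and non-responder was thus wider for NR4A1 after therapy and narrower for NR4A2 and NR4A3. With 1 library in each group these differences between times have no test.

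**Figure D2:**
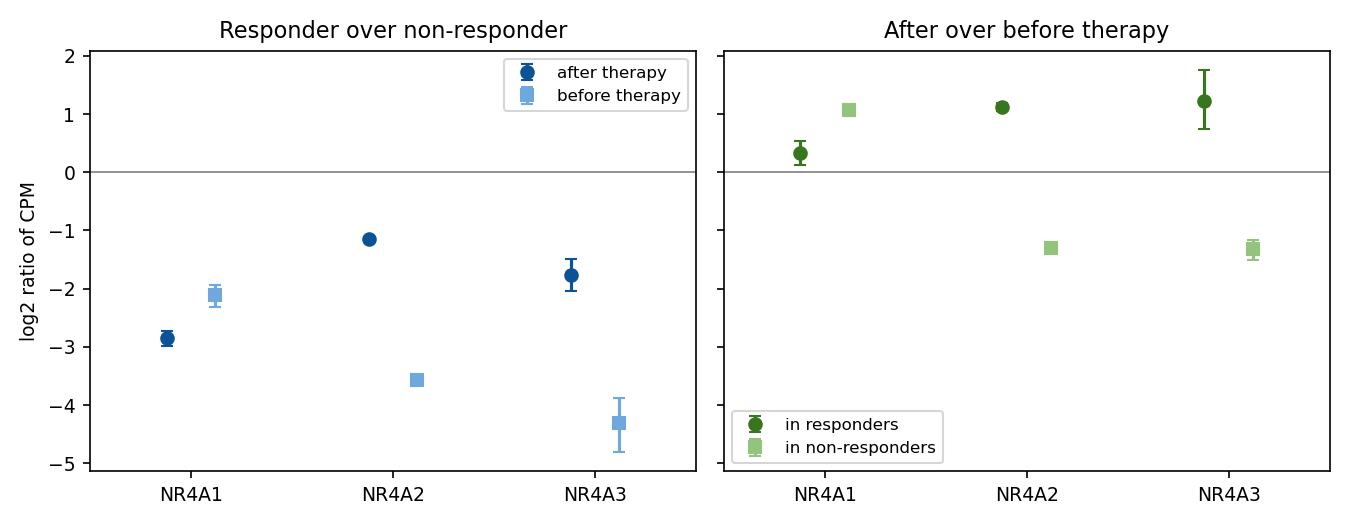
Log2 ratios of CPM for the 3 NR4A genes, responder over non-responder on the left and after over before therapy on the right, with exact 95% intervals for counting error. The response ratios lie below 0, between -4.31 and -1.15, while the time ratios of NR4A2 and NR4A3 lie above 0 in responders and below 0 in non-responders.

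The second comparison set libraries from after therapy against those from before. Between the responder libraries, all 3 genes stood higher after therapy. The log2 ratio of after to before was 0.33 (0.12 to 0.53) for NR4A1, 1.12 (1.06 to 1.19) for NR4A2 and 1.23 (0.74 to 1.76) for NR4A3. NR4A2, the only member with 5 CPM in either library, was 2.18-fold higher, and 8.5% of 12265 genes were at least 2-fold higher and 4.69% lower. Between the non-responder libraries, NR4A1 was 2.09-fold higher after therapy, at a log2 ratio of 1.07 (0.97 to 1.17), and 15.6% of 12641 genes were at least 2-fold higher. NR4A2 and NR4A3 went the other way, at log2 ratios of -1.30 (-1.33 to -1.27) and -1.33 (-1.50 to -1.16), and 8.25% of genes were at least 2-fold lower. Both differed from NR4A1 in direction between the non-responder libraries, and from their own direction between the responder libraries. Of 13233 genes reaching 5 CPM in any library, 0.242% were at least 2-fold higher after therapy in responders and 2-fold lower in non-responders. NR4A2 and NR4A3 were among them. NR4A3 reached 5 CPM only in the non-responder library before therapy (10.4 CPM), the high side of its lower ratio. In the responder libraries it stood at 1.22 CPM after and 0.516 CPM before therapy.

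The additive model fitted response and time together over all 4 libraries and 24113 genes, which leaves 1 residual degree of freedom. That degree of freedom is the difference in response ratio between times, which the model treats as error. The opposite time ratios of NR4A2 and NR4A3 thus enter the error of their own response tests. In edgeR's quasi-likelihood test the log2 ratio of responder to non-responder was -2.49 ± 0.390 (SE) for NR4A1, with an unadjusted p of 0.00342 and an adjusted p of 0.558. It was -2.36 ± 0.706 for NR4A2 and -3.03 ± 0.916 for NR4A3, both with an adjusted p of 0.559 in edgeR. None of the 3 passed the adjusted threshold of 0.05, at which edgeR called 0% of genes, while 2119 genes had an unadjusted p under 0.05, 3.87% of those tested being lower in responders and 4.92% higher, and the NR4A genes were among the lower ones. DESeq2 on the same model called all 3 lower in responders, with adjusted p-values of 6.91e-06 for NR4A1, 0.000477 for NR4A2 and 0.0175 for NR4A3, and it called 4.76% of 18970 genes, 2.52% lower. In limma-voom the adjusted p was 0.319 for each member. The size and direction of the ratios thus hardly differed between tools, while the call rested on the tool.

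For time, edgeR gave 0.70 ± 0.372 for NR4A1 (adjusted p = 0.547), -0.09 ± 0.686 for NR4A2 (adjusted p = 0.978) and -0.07 ± 0.892 for NR4A3 (adjusted p = 0.989). These values for NR4A2 and NR4A3 average a positive ratio in responders and a negative one in non-responders. In limma-voom the time ratio was further from 0, at -0.44 ± 0.544 for NR4A2 (adjusted p = 0.757) and -0.68 ± 0.698 for NR4A3 (adjusted p = 0.698). DESeq2 called 7.41% of 20373 genes for time, 2.15% lower after therapy, and none of the 3 members, whose adjusted p-values were 0.411 for NR4A1, 0.967 for NR4A2 and 0.987 for NR4A3.

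The neighbourhood of the genes bears on the counts. NR4A1 holds within its bounds the entry RP11-1100L3.8 (ENSG00000259884, chromosome 12, 52058459 to 52059503). That entry had 259 counts in the responder and 1565 in the non-responder after therapy, and 101 in the responder and 425 in the non-responder before therapy. Since the strand setting of the counting is not given in the sources used here, its reads cannot be told apart from those of NR4A1. GRASP, a scaffold protein gene that lies within 50 kb of NR4A1, stood at 0.918 CPM in the responder library and 19.0 in the non-responder library after therapy, and at 1.12 CPM in the responder library and 25.99 in the non-responder library before therapy. ATG101, an autophagy gene on the other side of NR4A1, stood at 15.5 CPM in the responder library and 17.6 in the non-responder library after therapy, and at 33.2 CPM in the responder library and 31.6 in the non-responder library before therapy. The low level in responders was thus shared by the neighbour GRASP and not by the neighbour ATG101. Other entries within 50 kb were mixed. In the responder ACVR1B was lower before therapy (0.865 against 4.16 CPM) and not after it (4.87 against 4.57 CPM). RNU6-574P was lower in the responder at both times, at no more than 0.813 CPM in any library. In the responder RP11-1100L3.7 was lower after therapy (7.82 against 9.77 CPM) and higher before it (19.1 against 18.2 CPM). No other entry overlapped NR4A2 or NR4A3, and none lay within 50 kb of NR4A2.

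Among 47 human nuclear receptors, NR4A2 ranked first per length in both non-responder libraries, at 35.0 CPM per kb after and 86.0 CPM per kb before therapy. The next receptor was NR1D2, a repressor of the circadian clock, at 23.7 CPM per kb after therapy, and the oxysterol receptor NR1H2 at 34.2 CPM per kb before therapy. In the responder libraries NR4A2 ranked 3 after therapy and 6 before it, behind NR1H2 and the glucocorticoid receptor gene NR3C1 at both times. NR4A1 ranked 20 in the responder and 9 in the non-responder after therapy, and 21 in the responder and 10 in the non-responder before therapy. NR4A3 ranked 25 in the responder and 21 in the non-responder after therapy, and 29 in the responder and 16 in the non-responder before therapy.

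**Figure D3:**
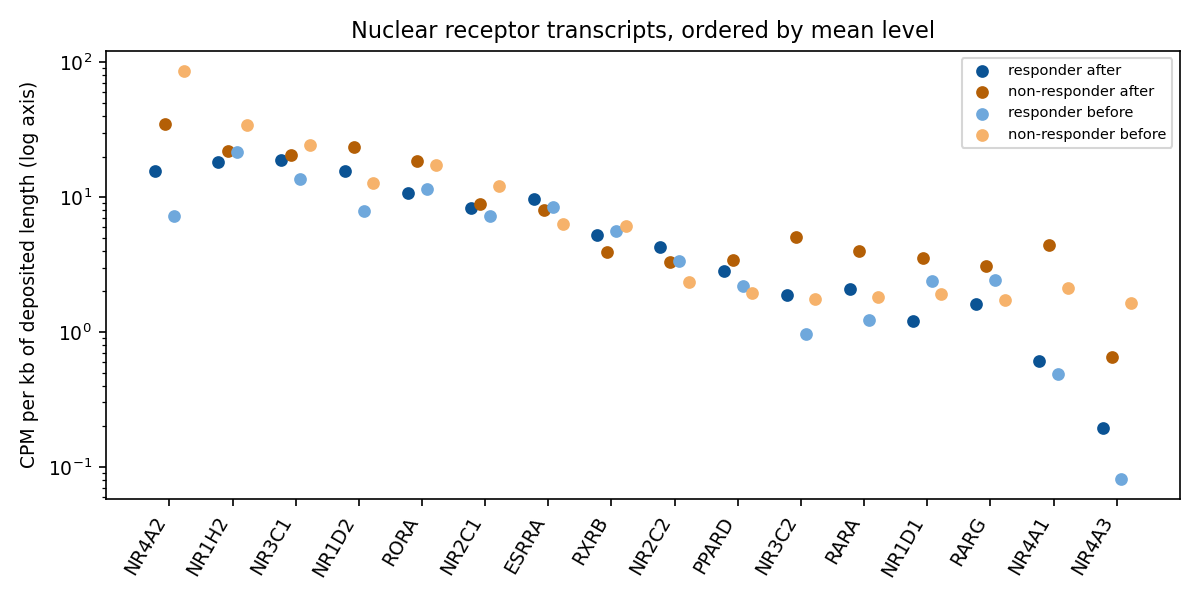
CPM per kb of deposited length, on a log axis, for the 14 nuclear receptors with the highest mean and for NR4A1 and NR4A3, with 1 point per library. NR4A2 spans the range from 7.21 CPM per kb in the responder to 86.0 CPM per kb in the non-responder before therapy.

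Other receptors were also apart by response. After therapy, 19 of the 47 receptors reached 5 CPM in either library, of which 5 were at least 2-fold lower in the responder and 0 were higher, where 8.85% of all genes compared were lower and 5.79% higher. Besides NR4A1 and NR4A2, these were NR1D1, NR3C2 and RXRA. NR1D1, a clock repressor, stood at 3.35 CPM in the responder library and 9.73 in the non-responder library, and the mineralocorticoid receptor gene NR3C2 at 12.4 CPM in the responder library and 33.3 in the non-responder library. Before therapy, 3 of 21 receptors were at least 2-fold lower in the responder, and these were NR4A1, NR4A2 and NR4A3 themselves, so that none of the other receptors was, where 8.93% of all genes were. The receptor on the other side was NR2F6, a transcriptional repressor, at 6.43 CPM in the responder library and 2.21 in the non-responder library before therapy. Of the 32 receptors in the edgeR fit, 6 had an unadjusted p under 0.05 for response, all lower in responders, where 3.87% of all genes were, and the 3 NR4A genes were among them. The retinoid X receptors that can pair with NR4A1 and NR4A2 were on both sides: RXRB stood at 20.7 CPM in the responder library and 15.3 in the non-responder library after therapy, and RXRA, one of the 5 above, at 8.10 CPM in the responder library and 21.0 in the non-responder library. Before therapy RXRB stood at 22.003 CPM in the responder library and 23.8 in the non-responder library, and RXRA at 5.37 CPM in the responder library and 3.93 in the non-responder library.

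The 31 genes of a list of immediate early genes, induced in the same window after stimulation as the NR4A genes, were lower in responders in most cases. Over the 28 members with a mean of at least 1 CPM the median log2 ratio of responder to non-responder was -1.71 after and -1.63 before therapy, against 0.04 after and 0.06 before therapy over 16444 genes. At least 2-fold lower in the responder were 18 of 28 after therapy and 23 of 26 before therapy, and 15 of 26 were so at both times, where the shares over all genes were 8.85%, 8.93% and 2.01%. Among them, EGR1, a zinc finger transcription factor, stood at 2.95 CPM in the responder library and 56.3 in the non-responder library after therapy. DUSP4, a phosphatase of MAP kinases, stood at 2.34 CPM in the responder library and 40.2 in the non-responder library before therapy. PER1, a clock gene, was 10.4-fold lower in the responder after therapy and 7.80-fold lower before it. In the edgeR fit 20 of 30 had an unadjusted p under 0.05 and 0 an adjusted one, all 20 lower in responders, where 3.87% of all genes were.

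Within this list the gap by response was wider after therapy for some genes and narrower for others. The ratio of responder to non-responder was lower after than before therapy for 14 of the 28, as for NR4A1, and higher for the other 14, as for NR4A2 and NR4A3. Over 16444 genes it was lower for 8308. KLF4, a transcription factor also made by monocytes, was of the first kind and stood at 4.37 CPM in the responder library and 49.2 in the non-responder library after therapy. ATF3, a stress-induced factor, stood at 0.706 CPM in the responder library and 17.9 in the non-responder library after therapy. All 15 monocyte markers likewise had a lower ratio after than before therapy, and their part in the ratio of NR4A1 was not tested.

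**Figure D4:**
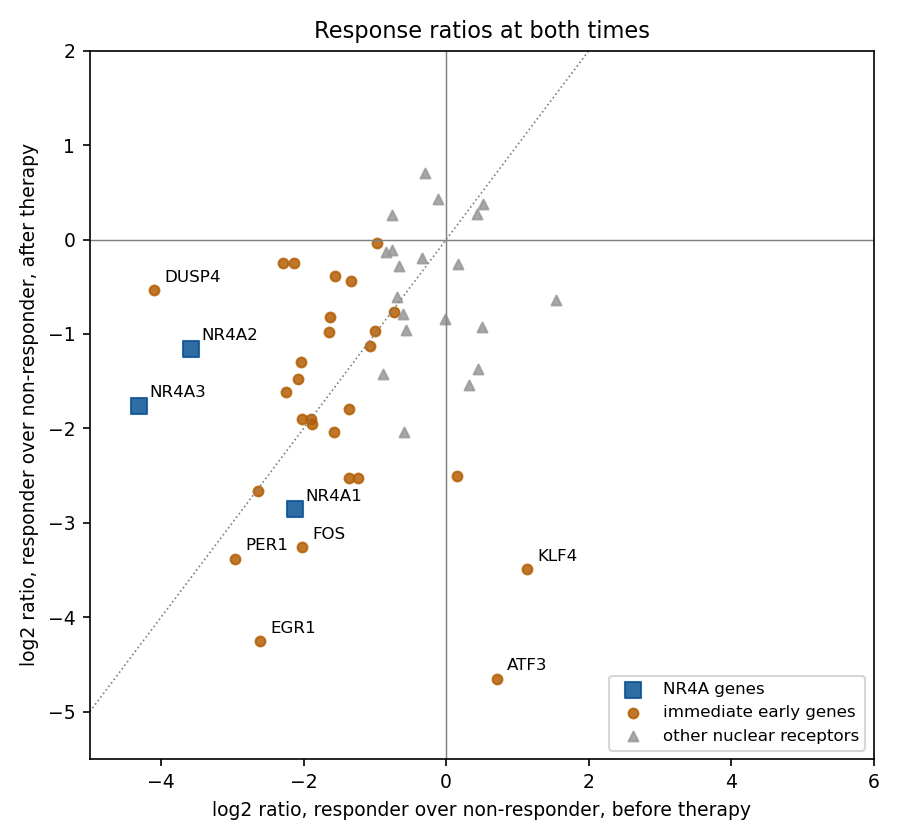
Log2 ratio of responder to non-responder before therapy (x axis) and after therapy (y axis) for 51 genes with a mean of at least 1 CPM and a count in every library: NR4A genes (squares), immediate early genes (circles) and other nuclear receptors (triangles), with a dotted line where both ratios are equal. NR4A2 and NR4A3 lie left of and above the line beside DUSP4, and NR4A1 lies below it beside FOS.

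The genes that carry signals to the NR4A promoters had medians nearer to 0. The calcium arm had a median log2 ratio of -0.21 after and -0.07 before therapy. Of its 14 genes (calcineurin subunits, NFAT and MEF2 factors, and their repressors), 2 were at least 2-fold lower in the responder after therapy and 1 higher. Before therapy 1 of 13 was lower and 1 higher. MEF2C, a factor also abundant in myeloid and B cells, stood at 7.31 CPM in the responder library and 39.4 in the non-responder library after therapy, and NFATC2 at 154 CPM in the responder library and 66.0 in the non-responder library. MEF2D stood at 26.5 CPM in the responder library and 83.6 in the non-responder library before therapy. In the fit, 1 of the 14 had an unadjusted p under 0.05 for response, and it was higher in responders, where 4.92% of all genes were. At least 2-fold apart were, over all genes, 8.85% lower and 5.79% higher after therapy, and 8.93% lower and 11.5% higher before it.

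Genes of the cAMP arm had medians above 0. The median log2 ratio over its 13 genes was 0.47 after and 0.28 before therapy. Of the 12 that reached 5 CPM, the responder stood at least 2-fold higher in 4 and lower in 1 after therapy, and 2 were higher and 1 lower before it. Over all genes 5.79% were higher after therapy and 11.5% before it, so the count before therapy is near that share. The prostaglandin receptor gene PTGER2 stood at 366 CPM in the responder library and 137 in the non-responder library after therapy, and at 160 CPM in the responder library and 77.4 in the non-responder library before therapy. The adenosine receptor gene ADORA2A stood at 59.1 CPM in the responder library and 27.3 in the non-responder library after therapy, and at 48.8 CPM in the responder library and 18.0 in the non-responder library before therapy. CREM, itself an inducible gene of this arm, stood at 19.2 CPM in the responder library and 48.5 in the non-responder library before therapy. In the fit, 4 of 13 had an unadjusted p under 0.05, all higher in responders, where 4.92% of all genes were, and 0 passed adjustment. Of 11 genes of the MAP kinase arm, 1 was at least 2-fold higher and 0 lower in the responder at each time, near the 5.79% of all genes that were higher after therapy and the 11.5% before it. These were ELK1, at 19.7 CPM in the responder library and 7.69 in the non-responder library after therapy, and RPS6KA1, at 312 CPM in the responder library and 145 in the non-responder library before therapy.

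Genes tied to NR4A receptors in mouse T cells had a median log2 ratio of 0.61 after and 0.11 before therapy. Of 8 such genes, 6 had at least 5 CPM in either library at each time. Of these, the responder stood at least 2-fold higher in 2 and lower in 0, both after and before therapy, where 5.79% of all genes were higher after it and 11.5% before. PDCD1, the PD-1 gene, stood at 28.7 CPM in the responder library and 7.88 in the non-responder library after therapy, and at 31.4 CPM in the responder library and 4.98 in the non-responder library before therapy. HAVCR2, the TIM-3 gene, stood at 45.6 CPM in the responder library and 17.1 in the non-responder library before therapy. IKZF2, which encodes Helios, stood at 18.8 CPM in the responder library and 4.20 in the non-responder library after therapy. In the edgeR fit 2 of 8 had an unadjusted p under 0.05, both higher in responders, where 4.92% of all genes were. The PD-1-positive tag stands in the names of both before-therapy libraries, so for PDCD1 a gate on PD-1 cannot be told apart from time. The part of such a gate in the response ratio before therapy was not tested.

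A list of genes that antigen receptor signalling induces was mixed, with a median log2 ratio of 0.39 after and 0.75 before therapy. After therapy the responder stood at least 2-fold higher in 3 of 11 and lower in 1, and before therapy 4 of 10 were higher and 1 lower. Over all genes 5.79% were higher and 8.85% lower after therapy, and 11.5% were higher and 8.93% lower before it, so that the single lower gene at each time is near the background. CD69, an early activation antigen, stood at 285 CPM in the responder library and 883 in the non-responder library before therapy. The costimulatory receptor gene TNFRSF9 went the other way, at 15.5 CPM in the responder library and 5.86 in the non-responder library before therapy, and at 16.97 CPM in the responder library and 6.82 in the non-responder library after therapy. IFNG stood at 22.5 CPM in the responder library and 84.3 in the non-responder library after therapy. In the fit, 2 were lower and 2 higher among 13, at an unadjusted p under 0.05, where 3.87% of all genes were lower and 4.92% higher. EGR2 and EGR3, which share the calcium route with the NR4A genes, were scarce, and EGR3 did not exceed 0.0447 CPM in any library. CD69, EGR2 and EGR3 are also in the immediate early list, so these lists are not independent.

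Heat shock and stress genes were divided. After therapy 4 of 16 were at least 2-fold lower and 0 higher in the responder, and before therapy 5 of 15 were lower and 0 higher, where 8.85% of all genes were lower after therapy and 8.93% before it. In the edgeR fit 5 of 16 were lower and 1 higher at an unadjusted p under 0.05, where 3.87% of all genes were lower and 4.92% higher. The higher one was the chaperone gene HSPA8, at 1372.5 CPM in the responder library and 849.6 in the non-responder library after therapy, and at 1158 CPM in the responder library and 597 in the non-responder library before therapy. DDIT3, a transcription factor induced by endoplasmic reticulum stress, stood at 47.7 CPM in the responder library and 148 in the non-responder library after therapy, and at 56.1 CPM in the responder library and 201 in the non-responder library before therapy. BAG3, a co-chaperone, stood at 3.68 CPM in the responder library and 17.4 in the non-responder library after therapy. The median log2 ratio over the 16 genes was -0.35 after and -0.67 before therapy, nearer to 0 than that of the immediate early list at both times.

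**Figure D5:**
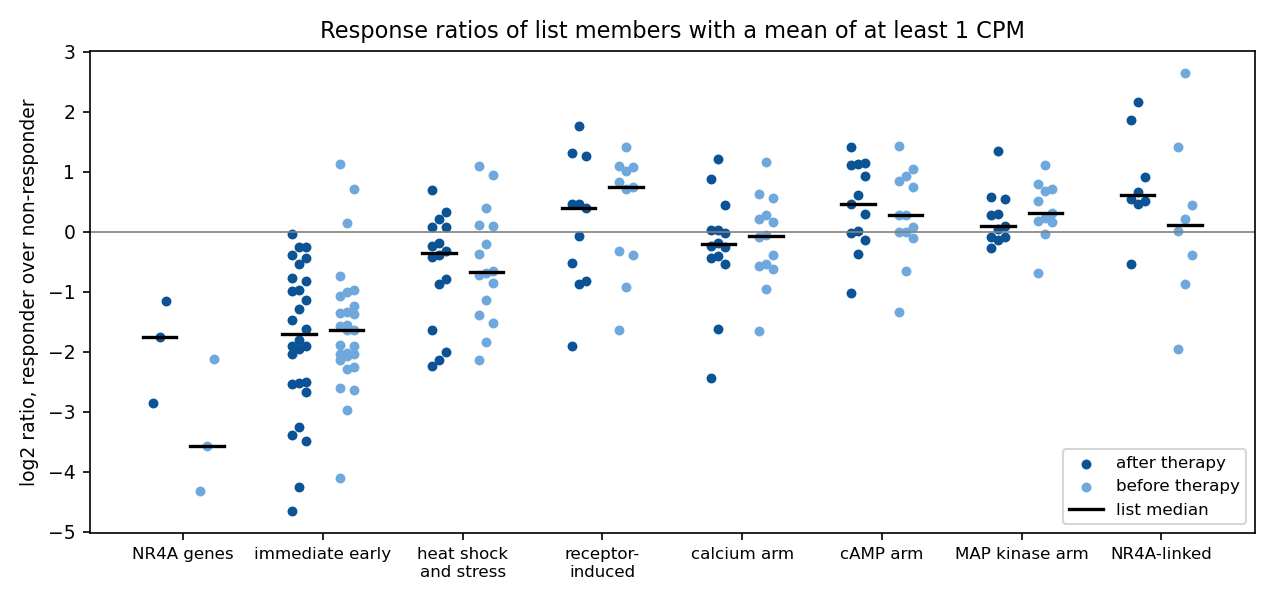
Log2 ratios of responder to non-responder after (dark) and before therapy (light) for the members of each list with a mean of at least 1 CPM, with a black line at the list median. The medians of the NR4A genes (-1.76 after, -3.58 before) and of the immediate early list (-1.71 after, -1.63 before) lie below those of the other lists drawn here, among which the cell type markers are not shown.

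Genes with the most similar profile were ranked by the root mean square difference of centred log2 CPM over the 4 libraries, among 13233 genes reaching 5 CPM in any library. The nearest to NR4A1 was the entry RP11-1100L3.8 inside it (0.158), which may hold the same reads. It was followed by CXorf21 (0.193), the ubiquitin ligase gene PELI1 (0.2001), the insulin receptor substrate gene IRS2 (0.230) and C6orf25 (0.242). PELI1 stood at 27.0 CPM in the responder library and 170 in the non-responder library after therapy, and at 24.5 CPM in the responder library and 117 in the non-responder library before therapy. The nearest to NR4A2 were NPM1P26 (0.209), AC093690.1 (0.335), the kinase gene PIM3 (0.337), NR4A3 (0.338) and IDI2-AS1 (0.345). PIM3 stood at 40.1 CPM in the responder library and 89.6 in the non-responder library after therapy, and at 28.7 CPM in the responder library and 181 in the non-responder library before therapy.

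The nearest to NR4A3 were USP32P1 (0.323), NR4A2 (0.338), C2orf88 (0.417), DNAJA1P3 (0.442) and NPM1P26 (0.487). NPM1P26, USP32P1 and DNAJA1P3 bear pseudogene names, and reads of their parent genes may be counted on them. NR4A2 and NR4A3 were thus 4 and 2 in each other's order, while NR4A1 ranked 474 for NR4A2 and 123 for NR4A3. A profile over 4 libraries is a description with few points, and it says nothing of shared control.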

How the data were processed

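Per the labels' protocols, 1 ng of RNA from each sorted sample entered the SMARTer Ultra Low kit and was sequenced as read pairs on an Illumina HiSeq. The submitters' processing notes name bcl2fastq 1.8.4, TopHat2 and hg38. What counted the reads, with which strand setting and annotation, is not given in the sources used here. The deposited files hold raw counts per gene, 1 file per library, with a total of 65500644 to 129773591. Of the lengths given there, 33.8% are multiples of 3, so they are called deposited lengths here and not coding lengths. No molecular identifiers are stated, so intervals and floors cover counting error only.

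From the counts, 59490 genes were used, leaving out 4146 on alternate or unplaced contigs and 617 sex-informative ones. Log2 ratios used TMM factors of genes kept by filterByExpr and a prior count of 0.5. The count of genes 2-fold or more apart covers genes reaching 5 CPM in a library of the pair, and list medians cover members with a mean of at least 1 CPM. The additive model of response and time used edgeR 4.0.16 in R 4.3.3, two-sided, with Benjamini-Hochberg adjustment over all genes tested, and an estimated common biological coefficient of variation of 0.66. Its SE is the size of the ratio divided by the square root of F. DESeq2 1.42.0 and limma 3.58.1 were alternatives. DESeq2 left 5143 adjusted p-values for response unset. The residual degree of freedom is the difference in response ratio between times, which the model treats as error. The p-values and SEs therefore hold no measure of the spread between patients. The edgeR fit was tested on simulated data. At a coefficient of variation of 0.66 it recovered 3% of 4-fold and 29.9% of 16-fold changes for response. For time it recovered 0% of 4-fold and 11.9% of 16-fold changes. At a coefficient of 0.1 it recovered 98.5% of 4-fold changes for response and 100% for time. At the estimated spread, most changes of 4-fold or 16-fold were thus not called.

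The members and all 17 other lists, with 215 genes found in the files, were chosen with earlier results of these data known. Named list genes are up to 4 per list with the largest ratio at a time among those with at least 5 CPM, and the 5 closest profiles per member. RXRB, NR1D2, NR1H2, NR3C1, GRASP, ATG101, EGR2, EGR3, HSPA8 and FOS were named outside that rule, after their values were seen. The reference sequences at hand were of mouse, so none is printed for these human genes. One nuclear receptor is not reported here and is in no count of that list.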

Additional observations from a re-analysis of the deposited data

Results flagged for a closer look

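Differences between groups in the direction of a contrast were noted where both counting intervals excluded 0. With 1 library in each group these differences were not tested. NR4A2 had a log2 ratio of after to before of 1.12 in responders and -1.30 in non-responders, 2.42 apart. For NR4A3 the ratios were 1.23 in responders and -1.33 in non-responders, 2.56 apart.

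Among named genes of the lists, the log2 ratio of responder to non-responder had opposite signs after and before therapy for 11. The ratio after minus that before was -5.36 for ATF3, -4.63 for KLF4, -3.24 for HSPA6, -3.06 for MEF2C, -2.79 for HDAC9, -2.18 for NR2F6, -1.86 for NR1D1, -1.83 for RXRA and -0.82 for MAPK7. It was 1.96 for CREM and 0.86 for IRF4. The ratio of KLF4 before therapy rests on few counts, 37 in the responder (0.444 CPM) and 13 in the non-responder (0.199 CPM). In the same contrast the 15 monocyte markers had medians of -2.24 after and -0.43 before therapy, and their part in these values was not tested.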

How the results depend on the processing

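No paired analysis was possible because each group holds 1 library, and leaving out a library leaves the additive model without residual degrees of freedom. Over the other scalings, prior counts and fits run, no ratio of an NR4A gene or of the family changed direction. Scaling by library size alone moved the family's summed log2 ratio beyond its counting interval in 3 comparisons: to -3.40 for responder over non-responder before therapy, to 0.95 for after over before therapy in responders and to -1.11 for the same in non-responders, against -3.49, 1.06 and -1.07 with TMM. With that scaling the median log2 ratio of all genes in the responders over time was -0.07, against 0.03 with TMM. The fitted response ratios passed the threshold in DESeq2, at -2.50 for NR4A1, -2.38 for NR4A2 and -3.05 for NR4A3, and in none of the edgeR or limma-voom fits. Leaving time out of the model gave adjusted p-values of 0.872 for each. The genes called numbered 903 for response and 1509 for time in DESeq2, 2 for time in limma-voom and 2 for time in edgeR without the expression filter, against 0 in edgeR with it, where 2119 and 2732 had an unadjusted p under 0.05. With a minimum of 1 CPM, 3765 genes were at least 2-fold apart by response after therapy and 5253 before it, and 3586 over time in responders and 5942 in non-responders. The cause of these shifts was not tested beyond the lower minimum, which admits more genes. Depth limits NR4A3 most, with 43 counts in the responder before therapy.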
